A study of Mus musculus with 58 samples.

Results

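The inflammasome and interleukin 1 genes described here are 10 named genes, Il1b, Il1a, Mefv, Nlrp1a, Nlrp3, Nlrc4, Casp1, Pycard, Nod1 and Nod2, among the 20018 genes with a symbol on the array. They were chosen by name from earlier results of these same arrays, so the differences between doses in lung and liver are given below as a description. The array carried 13 probes for them out of 55681 probes in all, with a pair of probes each for Mefv, Nlrp1a and Nlrp3 and a single probe for each of the others. Where a gene had a pair, the brighter probe stands for it below, and the dimmer probe is described beside it.

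Male Muta™Mouse, a strain that carries a lacZ transgene for mutation testing, were about 13 weeks old and received olive oil alone or indeno(123,cd)pyrene (IP) in olive oil by gavage on each of 28 days. IP is a polycyclic aromatic hydrocarbon of combustion products, and its low dose was 12.5, its middle dose 25 and its high dose 50 mg/kg-bw/day. Lung, liver and forestomach were taken 72 h after the last dose, and RNA of each organ of each mouse was hybridized to its own array together with a common reference RNA pooled from mouse cell lines. Lung had 5 mice in every group, whereas liver and forestomach had 4 vehicle mice and 5 mice at each dose. Levels are log2 ratios of sample over reference RNA, so that 0 is the level of the reference and each unit is a doubling. All groups had the same strain, sex and age, and the RNA came from sections of whole organ, in which fewer cells of a type and less RNA per cell cannot be told apart.

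Inflammasomes are protein platforms that assemble when a sensor detects microbial products or cell damage. Sensors such as the proteins of Mefv (pyrin), Nlrp1a, Nlrp3 and Nlrc4 act on the protease caspase-1, encoded by Casp1. Some of them act through the adaptor ASC, encoded by Pycard. Caspase-1 cleaves the precursor of interleukin 1 beta. Neutrophils and macrophages are well known sources of interleukin 1 beta, and pyrin is best known from granulocytes and monocytes. The products of Nod1 and Nod2 are related receptors that recognize fragments of bacterial cell wall and signal to NF-kB without an inflammasome.

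The promoters of Il1b and Mefv are shown because these are the members whose level at the highest dose lay apart from vehicle in lung. Each run is the 250 bases before the annotated start of the gene in RefSeq on build GRCm38.p6, read 5′ to 3′ on the minus strand, chr2:129371140-129371389 for Il1b and chr16:3718125-3718374 for Mefv. Capitals mark matches on either strand to 3 short motifs: GCGTG, the core bound by the aryl hydrocarbon receptor, TTNNGNAAT, a relaxed form of the C/EBP site, and GAGGAA, the core bound by PU.1.
Il1b: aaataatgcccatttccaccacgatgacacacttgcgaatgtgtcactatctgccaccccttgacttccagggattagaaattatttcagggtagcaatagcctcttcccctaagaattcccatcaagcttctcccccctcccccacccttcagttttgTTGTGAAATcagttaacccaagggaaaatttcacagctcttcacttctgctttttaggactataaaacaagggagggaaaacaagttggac
Mefv: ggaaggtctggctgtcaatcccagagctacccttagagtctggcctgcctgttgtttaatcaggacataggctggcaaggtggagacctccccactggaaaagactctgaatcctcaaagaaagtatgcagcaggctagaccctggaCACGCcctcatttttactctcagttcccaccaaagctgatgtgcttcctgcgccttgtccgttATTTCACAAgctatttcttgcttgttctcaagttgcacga
Il1b held 1 match, to the C/EBP form, which began 91 bases before the start. Mefv held 1 match to the same form, 40 bases before the start, and 1 match to GCGTG, 103 bases before the start. None of the other 8 members held the C/EBP form in its first listed promoter. Of 32817 promoter windows of this length, 10.2% held the C/EBP form, 28.1% GCGTG and 23.3% GAGGAA. A match is a description of letters and says nothing of whether a factor binds there.

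The arrays varied in how many probes they detected. In lung, 53% to 90.7% of probes were well above background, in liver 37.6% to 78.9% and in forestomach 43% to 85.9%. The 4 lungs on a single slide, those of mice 3, 8, 13 and 18, stood apart with 83.8% to 90.7%, against 53% to 70.4% in the other 16 lungs. Lung and forestomach shared 5 slides, whereas the livers were on 3 slides of their own and were read with another version of the scanner software, so liver and its slides cannot be told apart. Each tissue was rich in its own markers. Of the 19 forestomachs, 10 also had high levels of glandular stomach markers, described below, among them 3 of the 4 vehicle mice. Cyp1a1, Cyp1b1 and Ahrr, targets of the aryl hydrocarbon receptor, were used as a check of exposure, and each was higher in all 5 lungs at 50 mg/kg-bw/day than in any vehicle lung. In liver and forestomach they overlapped with vehicle at this dose and 0 of 3 passed the thresholds, with median differences of 0.28 and 0.40.

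Il1b and Mefv were the members with the largest differences from vehicle in lung at the highest dose, and like Il1a, Nlrp1a, Nlrc4 and Casp1 they were higher on average at every dose. In vehicle lungs of mice 1 to 5 the Il1b level was 1.48, 1.82, 1.59, 1.82 and 1.69. At 12.5 mg/kg-bw/day it was 2.24, 2.36, 1.33, 2.93 and 2.11 in mice 6 to 10, and at 25 mg/kg-bw/day it was 2.39, 2.11, 1.43, 1.91 and 1.90 in mice 11 to 15. At 50 mg/kg-bw/day it was 2.97, 2.35, 2.06, 2.49 and 2.21 in mice 16 to 20. All 5 lungs at the highest dose thus lay above all 5 vehicle lungs, whereas at each of the lower doses 4 lungs did so and the lung on the slide that stood apart lay below every vehicle lung. The differences from vehicle were 0.51, 0.27 and 0.74 on the log2 scale at the 3 doses, each with a standard error (SE) of 0.22, and the last is a fold change of 1.67. The size did not follow dose order, since the lowest dose had a larger mean difference than the middle dose.

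Mefv lay apart in the same way at the highest dose. The vehicle lungs of mice 1 to 5 had levels of 1.85, 1.46, 1.32, 1.84 and 1.69, and the lungs of mice 16 to 20 at 50 mg/kg-bw/day had 2.81, 2.05, 2.19, 2.48 and 2.23. These groups did not overlap. The mean difference was 0.35 at 12.5, 0.28 at 25 and 0.72 at 50 mg/kg-bw/day, each with an SE of 0.19, and the last is 1.64-fold. At the lower doses the levels were 2.14, 2.04, 1.29, 2.38 and 2.08 in mice 6 to 10 and 2.23, 1.90, 1.36, 1.95 and 2.14 in mice 11 to 15, with the lowest value of each dose again on the slide that stood apart. The dimmer Mefv probe, annotated to another transcript of the gene, stayed near 0, with 0.00 to 0.15 in vehicle and 0.04 to 0.30 at the highest dose.

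Every slide held 1 vehicle lung and 1 lung at each dose, which gave 5 comparisons within a slide. Il1b was higher at 50 mg/kg-bw/day than in vehicle on 5 of 5 slides, by 1.49, 0.53, 0.47, 0.80 and 0.40 on the log2 scale. Mefv was higher on 5 of 5 slides as well, by 0.96, 0.59, 0.87, 0.79 and 0.39. The slide that stood apart gave 0.47 for Il1b and 0.87 for Mefv. The SEs given above come from a fit of the dose groups without slide. With slide in the fit, the SE at 50 mg/kg-bw/day was 0.165 for Il1b and 0.109 for Mefv. On these slides each dose had its own column of arrays, and the effect of dose cannot be told apart from that of the column.

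**Figure D1:**
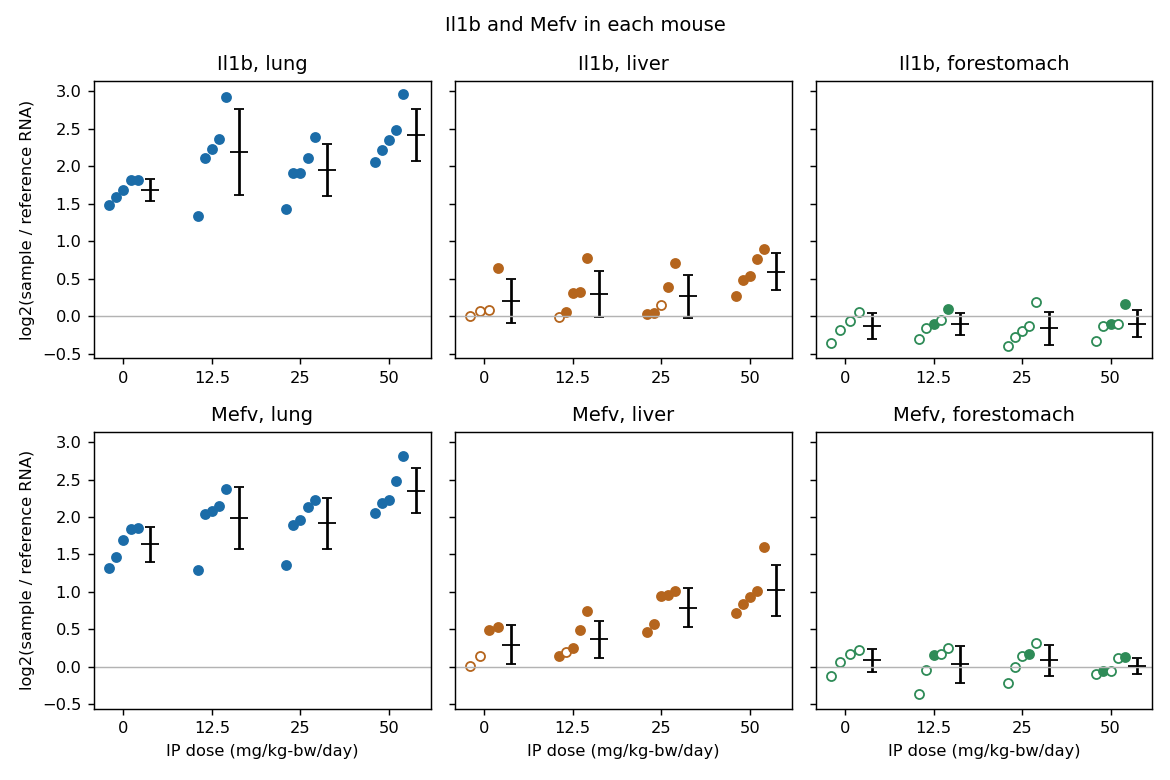
Log2 ratio of sample over reference RNA (vertical axis) for Il1b and Mefv in each mouse by IP dose in mg/kg-bw/day (horizontal axis), with the mean and SD of each group at its right. Filled points were well above background and open points were not. In lung, all 5 mice at 50 mg/kg-bw/day lie above all 5 vehicle mice for both genes, and the forestomach values stay near 0.

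Nlrp1a was the next largest in lung at the highest dose, and at 25 mg/kg-bw/day its difference was larger than those of Il1b and Mefv. Its brighter probe had levels of -0.44, -0.75, -0.68, -0.43 and -0.23 in vehicle mice 1 to 5 and of -0.13, 0.22, 0.50, 0.14 and -0.37 in mice 16 to 20 at 50 mg/kg-bw/day, where 4 of 5 lay above all vehicle lungs. Its differences were 0.48, 0.42 and 0.58 at rising doses, each with an SE of 0.15. The other Nlrp1a probe moved the other way, from 0.20 on average in vehicle to 0.06 at the highest dose. Nlrp1a has close relatives, Nlrp1b among them, and whether either probe also binds their transcripts was not tested. Nlrc4, the sensor that responds to flagellin through Naip proteins, was 0.32, 0.23 and 0.15 above vehicle at rising doses, each with an SE of 0.11, so its difference was smallest at the highest dose. At 25 mg/kg-bw/day all 5 lungs, between 0.73 and 0.97, lay above the vehicle lungs, which ran from 0.45 to 0.72. Nlrp3, the most studied sensor, differed by -0.01 with an SE of 0.08 at the highest dose.

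The adaptor, the protease and the remaining members all differed less than Nlrp1a at the highest dose. Casp1 was 0.34 above vehicle at 50 mg/kg-bw/day with an SE of 0.14, and 3 of 5 lungs were above every vehicle lung. Pycard differed by 0.19 with an SE of 0.18, and its vehicle lungs already ran from -0.53 to 0.51. Il1a differed by 0.15, Nod1 by 0.06 and Nod2 by -0.11. Over the 10 members, 8 were higher and 2 lower than vehicle at the highest dose, with a median difference of 0.17, beside a median of 0.00 over all probes.

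The thresholds of the study were a fold change of 1.5 or more together with an adjusted p no higher than 0.05. The study applied them to another test, MAANOVA, which called more lung genes for IP at each dose than the probes called here. With the limma fits used here, 0 of 10 members passed both at any dose in lung. Of all probes, 0% passed at 12.5, 0.0126% at 25 and 0.0790% at 50 mg/kg-bw/day. At the highest dose 2 of 10 members, Il1b and Mefv, were higher in every exposed lung than in every vehicle lung, as were 1.26% of all probes. Lung results were known when the members were selected, so no test is given here and nothing is read from these shares. At 1.2-fold or more and an unadjusted p below 0.05, the members passing were 4 of 10 at 12.5, 2 at 25 and 4 at 50 mg/kg-bw/day, beside 1.06%, 2.33% and 3.56% of all probes. With slide as a block, 2 members, Il1b and Mefv, passed both thresholds at 50 mg/kg-bw/day, among 155 of all 55681 probes. These counts too are a description of members selected with lung results known, and nothing is read from them.

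In liver, Mefv was the member with the largest difference and increased over the doses on average. The vehicle livers of mice 1, 2, 3 and 5 had Mefv levels of 0.01, 0.53, 0.50 and 0.15, and in 2 of these 4 the probe was not well above background. At 12.5 mg/kg-bw/day the levels of mice 6 to 10 were 0.19, 0.74, 0.25, 0.15 and 0.50, and at 25 mg/kg-bw/day those of mice 11 to 15 were 0.95, 0.96, 0.57, 1.01 and 0.46. At 50 mg/kg-bw/day those of mice 16 to 20 were 0.72, 1.01, 1.60, 0.94 and 0.83, all well above background and all higher than any vehicle liver. The mean differences were 0.07, 0.50 and 0.72, each with an SE of 0.18. In vehicle livers 37.6% to 41.7% of all probes were well above background, against 40.7% to 78.9% at 50 mg/kg-bw/day. Within a dose, livers with a higher share had lower Mefv (r of -0.613). The part of this imbalance in the Mefv values was not tested.

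Il1b in liver overlapped between the groups, with 0.00, 0.64, 0.07 and 0.08 in vehicle and 0.48, 0.77, 0.90, 0.54 and 0.27 at the highest dose. It differed by 0.39 with an SE of 0.18, and 1 vehicle liver, that of mouse 2, lay far above the other vehicle livers. Nod1 differed by 0.35 with an SE of 0.14, Pycard by 0.24, Il1a by 0.24 and Nlrc4 by 0.23, whereas Nlrp1a differed by -0.11 and Casp1 by -0.05. The brighter Nlrp3 probe was not well above background in any liver.

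Of the 10 members, 0 passed both thresholds at any dose in liver, as did 0% of all probes at 12.5, 0% at 25 and 0% at 50 mg/kg-bw/day. Mefv was the 1 member without overlap at the highest dose, beside 1.14% of all probes that were higher in every exposed liver. By the looser rule 0, 1 and 3 members passed at rising doses, beside 1.48%, 3.04% and 5.15% of probes. These values too are a description, without a test.

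In forestomach no member passed both thresholds at any dose. At 50 mg/kg-bw/day the 10 differences ran from -0.40 to 0.23 with a median of 0.05, beside 0.00 over all probes. Il1b and Mefv were not well above background in any of the 4 vehicle forestomachs, and their levels at the highest dose ran from -0.34 to 0.17 and from -0.09 to 0.13. Called members numbered 0 of 10 at every dose, beside 0% of all probes at 12.5, 0% at 25 and 0% at the highest dose. The lowest adjusted p of a member at any dose was 0.977 (limma). At 1.2-fold or more and an unadjusted p below 0.05, 0 of 10 members passed at 50 mg/kg-bw/day, against 1.83% of probes. None was higher in all 5 exposed forestomachs than in all vehicle forestomachs, against 0.891% of probes.

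Nod2, the receptor for muramyl dipeptide, had the lowest exact p of the members in forestomach. It was picked for this after the values were seen, and its exact p was not adjusted. It had levels of 0.21, -0.11, 0.09 and -0.11 in vehicle mice 1, 2, 3 and 5, and of 0.30, 0.43, 0.13, 0.24 and 0.13 at 50 mg/kg-bw/day. The groups overlapped, and the mean difference at 25 mg/kg-bw/day was similar, 0.26. The difference at the highest dose was 0.22 with an SE of 0.10 (adjusted p = 0.9999, limma). A two-sided exact permutation test of the 4 against 5 mice gave p = 0.0556, where the smallest value this design can give is 0.00794. Nod2 also varied with markers of the glandular stomach, described below, and their part in this difference was not tested.

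The differences at the highest dose were set side by side across tissues, with values only. The Mefv difference in lung minus that in liver was -0.01 with an SE of 0.25, and in lung minus that in forestomach it was 0.79 with an SE of 0.25. The Il1b difference was 0.35 larger in lung than in liver and 0.70 larger in lung than in forestomach, each with an SE of 0.27. For Nlrp1a, lung exceeded liver by 0.69 with an SE of 0.26. In forestomach the Il1b and Mefv probes were well above background on 2 of 5 arrays at the highest dose and on none in vehicle. The share of all probes well above background reached 52.4% in vehicle forestomachs and 85.9% at the highest dose. The part of this in the contrast was not tested.

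**Figure D2:**
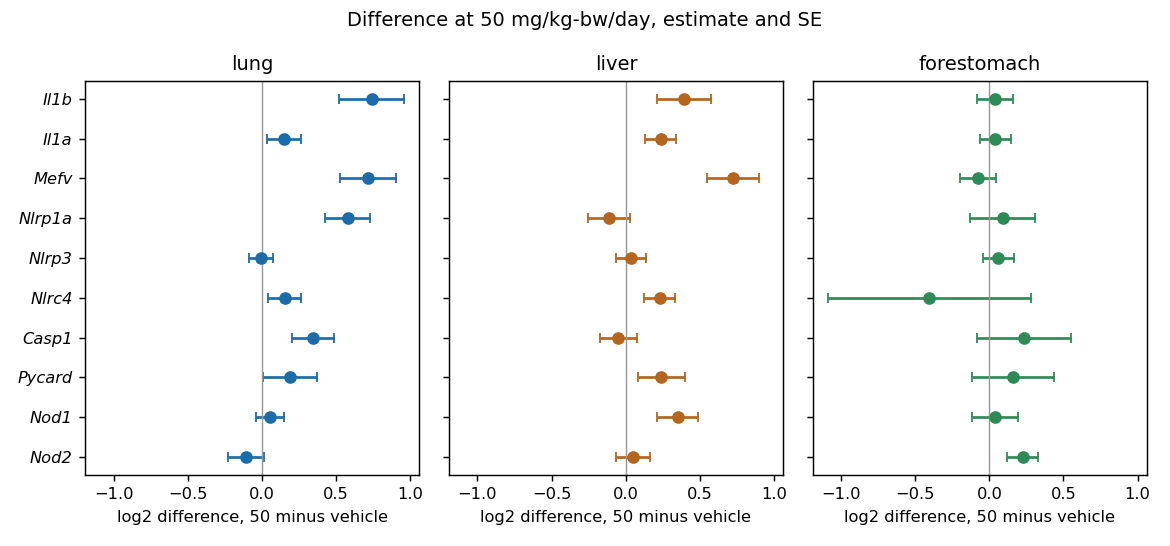
Difference in log2 ratio between 50 mg/kg-bw/day and vehicle (horizontal axis) for the 10 genes (vertical axis) in 3 tissues, with the estimate as a point and its SE as a bar. In lung Il1b is at 0.74 and Mefv at 0.72, in liver Mefv is at 0.72, and in forestomach Nlrc4 has by far the widest bar, an SE of 0.69.

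Pycard differed by as much as 5.44 on the log2 scale between tissues, while no member differed by more than 0.74 between a dose and vehicle. In vehicle mice, 7 of 10 members passed both thresholds between lung and liver, all 7 higher in lung, where 26.9% of all probes passed. Between lung and forestomach 6 of 10 passed, 4 higher in lung and 2 higher in forestomach, beside 19.5% of probes. Between forestomach and liver 5 of 10 passed, all 5 higher in forestomach, beside 22.7% of probes. The order of the tissues was not shared among the members, since Pycard and Casp1 were highest in forestomach and Il1b in lung. Of the 4 vehicle forestomachs, 3 had high levels of glandular stomach markers, described below. The part of these markers' tissue in the forestomach values was not tested.

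The adaptor gene Pycard was highest in forestomach. Its level in vehicle forestomachs of mice 1, 2, 3 and 5 was 3.75, 3.31, 3.74 and 4.00, in vehicle lungs of mice 1 to 5 it was -0.53, -0.46, 0.51, 0.49 and 0.44, and in vehicle livers it was -1.68, -2.00, -1.60 and -1.67. No pair of tissues overlapped. The forestomach level was 43.4-fold that of liver (log2 difference 5.44, SE 0.24, adjusted p = 4.72e-26) and 12.2-fold that of lung (adjusted p = 3.21e-19). The lung level was in turn 3.55-fold that of liver.

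Casp1 followed the same order at a smaller scale. Its mean level was 0.79 in forestomach, -1.02 in lung and -1.85 in liver. Forestomach exceeded lung by 3.50-fold (adjusted p = 2.31e-09) and liver by 6.23-fold (adjusted p = 6.77e-14), and lung exceeded liver by 1.78-fold (adjusted p = 0.00185). The groups of vehicle mice did not overlap in any of these comparisons.

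Il1b and Mefv were highest in lung. The 5 vehicle lungs, at 1.48 to 1.82 for Il1b and 1.32 to 1.85 for Mefv, lay above every vehicle liver and forestomach. Il1b was 2.79-fold higher in lung than in liver (adjusted p = 5.60e-09) and Mefv 2.53-fold (adjusted p = 7.84e-09), but only 1 of 4 vehicle livers measured Il1b well above background and 2 of 4 measured Mefv. The log2 differences were 1.48 and 1.34, and with the scanner's background-subtracted ratio they were 2.28 and 2.20. Against forestomach, where neither probe was well above background on any vehicle array, Il1b was at least 3.00-fold and Mefv at least 2.26-fold higher in lung, with adjusted p = 3.75e-11 and 3.12e-10. These bounds set the lung mean against, on each array, the higher of the probe's own signal and the lowest signal well above background.

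Nod1 also had its highest level in lung, 2.21 with an SD of 0.04 over 5 mice, followed by 0.99 in forestomach and 0.27 in liver. All 3 steps passed, with 2.33-fold between lung and forestomach (adjusted p = 1.03e-10) and 1.65-fold between forestomach and liver (adjusted p = 4.10e-05). Nlrp1a was 1.90-fold higher in lung than in liver and 1.61-fold higher than in forestomach, but forestomach and liver overlapped. Nod2 was lowest in liver, where no vehicle array was well above background, and was at least 1.37-fold higher in lung and at least 1.43-fold higher in forestomach, while lung and forestomach overlapped.

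Il1a and Nlrp3 did not pass between any pair of tissues with loess ratios. With the scanner's ratio Nlrp3 passed between lung and liver (log2 difference 1.72, adjusted p = 2.28e-05) and between forestomach and liver (1.07, adjusted p = 0.0125), although its brighter probe was not well above background in any liver. Il1a was not well above background in any vehicle liver or forestomach and was so in 3 of 5 vehicle lungs, with means between 0.10 and 0.31. Nlrp3 had means between -0.12 and 0.18.

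**Figure D3:**
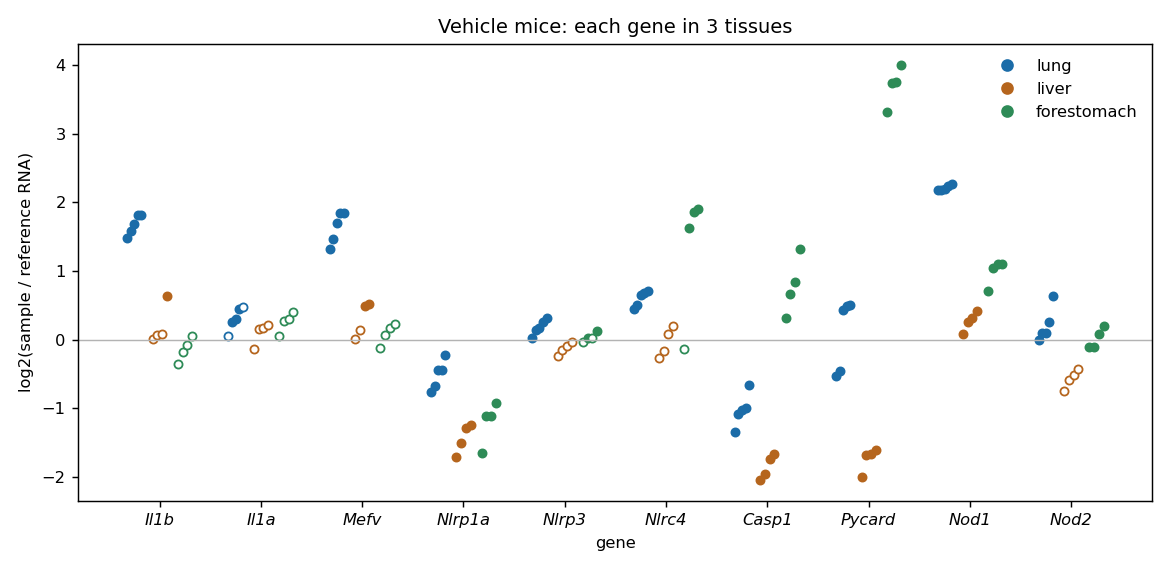
Log2 ratio of sample over reference RNA (vertical axis) of the 10 genes (horizontal axis) in the vehicle mice, 5 lungs, 4 livers and 4 forestomachs, with filled points well above background and open points not. Pycard and Casp1 are highest in forestomach, Il1b, Mefv and Nod1 in lung, and the forestomach values of Nlrc4 split, with 1 mouse near 0 and 3 mice between 1.62 and 1.91.

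Nlrc4 did not have a common level in forestomach, and its values followed markers of the glandular stomach, the part next to the forestomach. The mean log2 ratio of 8 glandular markers, Atp4a, Atp4b, Cblif, Pgc, Tff1, Tff2, Muc5ac and Gkn1, was between 0.53 and 1.55 in 9 forestomachs and between 4.82 and 6.45 in the other 10, with nothing in between. Nlrc4 ran from -0.13 to 0.28 in the 9 and from 0.39 to 3.30 in the 10, without overlap. The highest, 3.30, was mouse 6 at 12.5 mg/kg-bw/day, and the lowest of the 10, 0.39, was mouse 18 at 50 mg/kg-bw/day, which also had the lowest marker level of the 10. The forestomachs with the high marker level were 3 of 4 vehicle mice, 2 of 5 at 12.5, 2 of 5 at 25 and 3 of 5 at 50 mg/kg-bw/day, so they were in every group but not evenly. The median difference of the 8 markers from vehicle was -1.79 at 12.5, -1.56 at 25 and -0.87 at 50 mg/kg-bw/day. The part of this in the forestomach dose differences was not tested. The split was set after the values were seen, and no test is given.

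The same samples differed in other members. Casp1 had a median of 0.66 in the 10 forestomachs with the high marker level and 1.23 in the other 9, and Il1a had medians of 0.21 and 0.38. Nod2 had medians of 0.11 and 0.25 in the same order. Mouse 6 had both the highest Nlrc4 and the lowest Casp1, -0.39, and Pycard, 2.88, of all 19 forestomachs. Squamous markers such as Krt5 and Krt13 were high in all of them, with a list mean between 3.71 and 4.74. In the vehicle groups, Nlrc4 was at least 1.91-fold higher in forestomach than in liver, where it was not well above background on any array (adjusted p = 0.0146), and this call was lost without forestomach mouse 2 (adjusted p = 0.0623) or mouse 5 (adjusted p = 0.0668), both of which carried the glandular markers. The vehicle lungs, at 0.45 to 0.72, lay above all 9 low forestomachs and overlapped the range of the high ones.

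**Figure D4:**
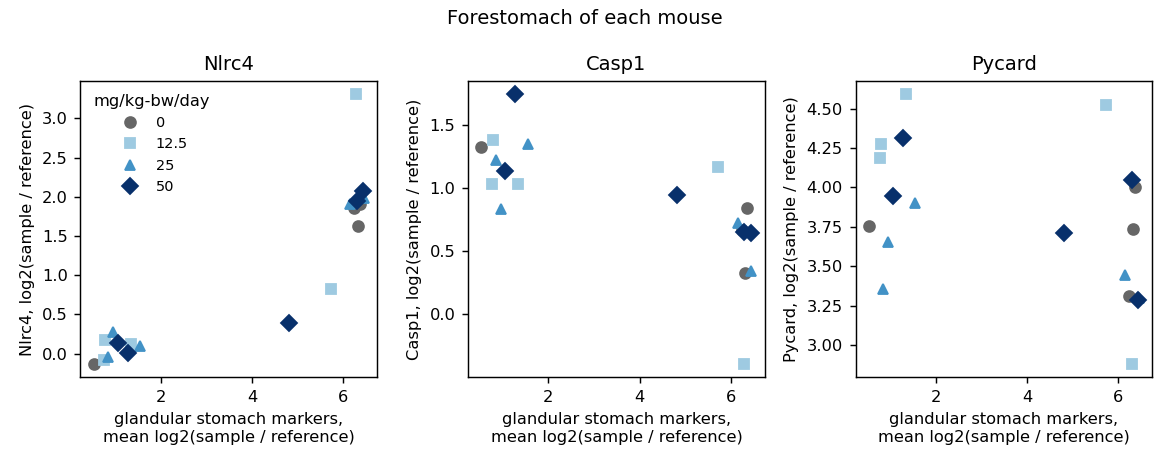
Log2 ratio of Nlrc4, Casp1 and Pycard (vertical axes) against the mean log2 ratio of 8 glandular stomach markers (horizontal axis) in the 19 forestomachs, with symbols for dose. The samples form a low group of 9 and a high group of 10, and Nlrc4 stays at or below 0.28 in the first and at or above 0.39 in the second.

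Neutrophil markers were measured because neutrophils are rich in Il1b and Mefv transcripts. Of 14 markers, 13 were named on the array, and 12 or 13 of them were well above background in every lung. At 50 mg/kg-bw/day 10 of 13 were higher in lung than in vehicle with a median difference of 0.10, and 0 passed both thresholds. The largest were Mmp8, neutrophil collagenase, at 1.04 with an SE of 0.28, and S100a8, a calcium-binding protein of neutrophil granulocytes, at 0.68 with an SE of 0.25. The summed Cy5 signal of the 13 ran from 59830 to 95310 in vehicle lungs and from 67020 to 113900 at the highest dose, so the groups overlapped. Monocyte and macrophage markers were higher in 7 of 8 with a median of 0.16 and 0 calls. Their part in the Il1b and Mefv values was not tested.

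Within a dose, lungs with more Il1b and Mefv had more of the neutrophil markers. Over 20 lungs, each taken as its deviation from the mean of its dose, Il1b and the mean of the 13 markers had a Pearson r of 0.735 and a Spearman rho of 0.629 (permutation p = 0.00063 and 0.00603, adjusted over 12 relations 0.00378 and 0.0241). Mefv had r of 0.755 and rho of 0.774 (permutation p = 0.00045 and 0.00052, adjusted 0.00378 and 0.00624). Without the 2 lungs farthest from the median, r was 0.672 and 0.754. With monocyte and macrophage markers, r was 0.373 for Il1b and 0.433 for Mefv, and neither passed (permutation p = 0.0847 and 0.0676). All values of a lung come from the same array. The permutations shuffled lungs within a dose without regard to slide, so their p does not allow for differences between slides. Il1b and Mefv were taken up with lung results known, and these relations are a description. With each array centred on its median in place of loess, r fell to 0.619 and 0.314 and neither passed (adjusted permutation p = 0.205 for Il1b and 0.593 for Mefv).

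The share of probes well above background moved with these values too. It had an r of -0.604 with Il1b, -0.737 with Mefv and -0.588 with the neutrophil markers over the same 20 deviations. Without the 4 lungs of the slide that stood apart, r with the markers was 0.688 for Il1b and 0.767 for Mefv over 16 lungs. After removing slide means as well as dose means, it was 0.504 and 0.314, with rho of 0.349 and 0.211. These values were added after the first were seen and are a description. The part of array quality in the relation was not tested.

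**Figure D5:**
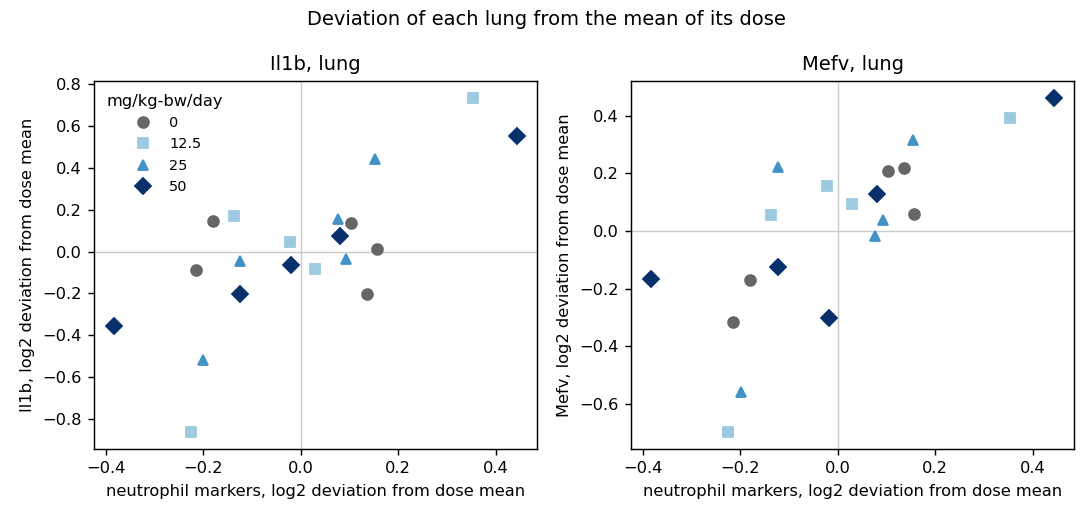
Deviation of Il1b and Mefv from the mean of their dose (vertical axes, log2) against the deviation of the mean of 13 neutrophil markers (horizontal axes, log2) in 20 lungs, with symbols for dose. Lungs above their dose mean for the markers tend to lie above it for both genes, with Pearson r of 0.735 for Il1b and 0.755 for Mefv.

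In liver, Il1b had r of 0.619 and rho of 0.686 with the neutrophil markers over 19 livers (permutation p = 0.00698 and 0.0055, adjusted 0.0279 and 0.0241), and r was 0.436 without the 2 farthest. Mefv had r of 0.606 and rho of 0.519 with the monocyte and macrophage markers (permutation p = 0.0107 and 0.0363, adjusted 0.0321 and 0.0745). Mefv with the neutrophil markers had r of 0.529 and rho of 0.584, and only rho passed (permutation p = 0.0503 and 0.0124, adjusted 0.0998 and 0.0373). With arrays centred on the median none of these passed, with r of 0.341, 0.239 and -0.0541. The permutations took no account of slide in liver either. Only 4 to 11 of the 13 neutrophil markers were well above background in a liver. The share of probes well above background had r of -0.547 with Il1b, -0.613 with Mefv and -0.645 with the neutrophil markers over the 19 livers, and its part was not tested. In forestomach none of the 4 relations passed.

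The genes whose deviations were most like those of Il1b across the 20 lungs, out of 15321 genes well above background on at least 50% of the lung arrays, were Iigp1 (r = 0.862), Cxcr2 (0.852), Gbp6 (0.842), B430306N03Rik (0.840), Igsf6 (0.836), Nkain4 (0.836), Retnlg (0.828) and Tnfsf8 (0.826). Those most like Mefv were Rnase6 (0.935), Sirpb1a (0.924), C1qtnf2 (0.918), Zfp711 (0.914), Kit (0.905), Adrb1 (0.902), Cxcr2 (0.901) and Glb1l2 (0.899). Cxcr2, a chemokine receptor, and Retnlg are on the list of neutrophil markers. In the 19 forestomachs the closest were Mcm8 (0.826) for Il1b and Mrgpre (0.855) for Mefv, out of 13748 genes, with both members near background there. These are likenesses over samples that share arrays, and no test is given.

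The rest of the pathway was described by 59 further genes, of which 58 were named on the array. They comprised sensors and receptors, the interleukin 1 family and its receptors, adaptors, kinases and effectors, and downstream cytokines. None of the 58 passed both thresholds at any dose in any tissue. At 50 mg/kg-bw/day 37 of 58 were higher than vehicle in lung with a median of 0.05, 24 in liver with a median of -0.07, and 30 in forestomach with a median of 0.00. Among genes well above background on at least 50% of the lung arrays, the 3 largest differences were Il18r1, a subunit of the interleukin 18 receptor, at -0.45 with an SE of 0.46, Casp4, the caspase that senses intracellular lipopolysaccharide, at 0.41 with an SE of 0.16, and Nfkbia, an inhibitor of NF-kB, at -0.39 with an SE of 0.11. Among genes well above background on at least 50% of the liver arrays, they were Irak4, an interleukin 1 receptor kinase, at -0.58, the cytokine Il33 at -0.54 and Il1r1, the signalling receptor of interleukin 1, at 0.50. Ptgs2, not well above background in any liver, had a larger fitted difference of -0.75. By the same rule they were, in forestomach, Il18r1 at -0.53, Il1f9 at -0.37 and Nlrx1 at 0.32.

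Between tissues of vehicle mice the pathway genes split in both directions. Of the 58, 20 were called higher and 8 lower in lung than in liver, 17 higher and 10 lower in lung than in forestomach, and 20 higher and 9 lower in forestomach than in liver. Of all probes, 26.9%, 19.5% and 22.7% were called in these comparisons, in either direction. The following were picked after their values were seen. Il18, the other cytokine precursor cleaved by caspase-1, had its highest level in forestomach like Casp1 and Pycard, 10.0-fold over liver (adjusted p = 5.89e-18) and 12.9-fold over lung (adjusted p = 3.10e-20). Il1f5, an antagonist of the interleukin 36 receptor, was at least 170-fold higher in forestomach than in liver. Il1r2, the decoy receptor of interleukin 1, was 10.8-fold higher in forestomach than in lung. Il1rap, the shared accessory chain of these receptors, was highest in liver, 43.9-fold over lung and 42.8-fold over forestomach. Gsdmd, the pore-forming target of caspase-1, was 1.93-fold higher in liver than in lung and 2.91-fold higher than in forestomach. The high glandular stomach markers in 3 of 4 vehicle forestomachs apply here too, and their part in these differences was not tested.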

How the data were processed

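Gene expression in 58 RNA samples was measured on 2-colour Agilent arrays, with sample RNA in Cy5 and Universal Mouse Reference RNA in Cy3, 1 sample per array. The deposited scanner files hold spot intensity values that the authors extracted with Agilent Feature Extraction 10.7.3.1 for lung and forestomach and 11.0.1.1 for liver, per the file headers, with the scanner's own log10 ratio of Cy5 over Cy3. The deposited log2 ratios are values that the authors normalized by LOWESS without background subtraction, and the liver column was not used because its probe names did not match the scanner values.

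The ratio of median signals was taken without background subtraction, control and outlier spots were left out, loess was applied within each array, and spots of a probe were averaged in R 4.3.3 with limma 3.58.1. Dose groups were compared with vehicle in a fit of the 4 groups of a tissue, and tissues in a fit of all 12 groups, with lmFit and eBayes and Benjamini-Hochberg adjustment over 55681 probes. Calls needed 1.5-fold or more and an adjusted p no higher than 0.05. Signals too dim to measure compress ratios toward 0. Correlations used 100000 permutations of mice within dose groups, without regard to slide. The fits were tested on simulated data with known changes.

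The members and gene lists were chosen with earlier results of these data known. The text names all 10 members, list genes past the thresholds or otherwise the 3 largest differences per tissue, and the 8 genes most like Il1b and Mefv. Nlrp6, Ly6g, Cd68 and Ly6c2 are not analysed here, since no probe was matched to these symbols. Symbols were matched through RefSeq accessions. Mouse numbers pair tissues of the same animal, per the labels, and a replicate block was an alternative. The alternatives were normexp, median centring, outlier spots kept, the scanner ratio, the authors' values, slide as a block, fewer samples, other probes or thresholds, and leaving out each mouse. The labels' protocol gives 4 vehicle mice, and 5 vehicle lungs are labelled. The number of arrays limits the precision.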

Additional observations from a re-analysis of the deposited data

Results flagged for a closer look

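In 8 of 120 groups of a gene, tissue and dose, 1 sample lay far from the rest, where chance alone marks about 5% of such groups. Of these, 5 were in forestomach. Mouse 6 at 12.5 mg/kg-bw/day had Nlrc4 at 3.30, against -0.08 to 0.83 in the other 4 mice, Casp1 at -0.39, against 1.03 to 1.38, and Pycard at 2.88, against 4.18 to 4.59. Vehicle mouse 1 had Nlrc4 at -0.13, against 1.62 to 1.91 in the other 3 vehicle mice, and Nod1 at 0.71, against 1.05 to 1.10. Mouse 6 had a glandular stomach marker level of 6.29 and vehicle mouse 1 had 0.53, the lowest of the 19 forestomachs. In liver, Il1b in vehicle mouse 2 was 0.64, against 0.00 to 0.08. In lung, Pycard in mouse 19 at 50 mg/kg-bw/day was -0.0712, against 0.35 to 0.37, and Nod2 in mouse 13 at 25 mg/kg-bw/day was 0.22, against -0.20 to -0.09.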

How the results depend on the processing

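No member was called in any dose comparison when any 1 mouse was left out (0 to 0), and the differences at 50 mg/kg-bw/day then ran from 0.60 to 0.83 for Il1b and from 0.60 to 0.79 for Mefv in lung, and from 0.32 to 0.54 and from 0.58 to 0.80 in liver. In lung at 50 mg/kg-bw/day, 1 member was called with normexp and 2 with slide as a block. All called probes numbered 155 of 55681 with slide as a block and were not counted with normexp. Nothing is read from either count of members. At an unadjusted p under 0.05 with 1.2-fold, 4, 2 and 4 members passed in lung at the low, middle and high dose, and in liver 1 at the middle and 3 at the high dose, beside the shares of all probes given above. The scanner's background-subtracted ratio gave 1.30 for Mefv in lung, and 1.11 for Il1b and 2.03 for Mefv in liver; the cause was not tested.

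Between tissues, 7 members stayed called for lung and liver without any 1 vehicle array, 5 to 7 for lung and forestomach and 4 to 5 for forestomach and liver. The scanner's ratio raised the first count to 9 and the last to 7, adding Nlrp3 to both, Nlrc4 to the first and Il1b to the last. The share of all probes called with the scanner's ratio was not counted, so nothing is read from this rise. Nod2 between forestomach and liver (log2 difference 0.59) fell below the thresholds with median centring (0.46) and without liver mouse 2 or 5 or forestomach mouse 1 or 3. Nlrp1a between lung and forestomach fell below them without forestomach mouse 2 (0.54). With the mouse number as a replicate block, 7, 6 and 5 members were called, and no call of a tissue count changed. Median centring turned r of Mefv with monocyte and macrophage markers to -0.182 in lung and -0.0473 in forestomach, and with neutrophil markers in liver to -0.0541; without the 2 farthest mice the former was -0.0607 in forestomach.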
